A study of Mus musculus with 4 samples.

Results

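The transcripts described here are 9 TOP mRNAs of translation elongation that do not encode ribosomal proteins: Eef1a1, Eef1b2, Eef1d, Eef1g, Eef2, Tpt1, Naca, Btf3 and Rack1. They were chosen by name, as mRNAs known to begin with a 5′ terminal oligopyrimidine (TOP) tract, with earlier results of these data known. All 9 were among the 50559 genes listed and the 18144 genes with enough counts to be tested. RNA-seq was performed on E14 mouse embryonic stem cells (ESCs), grown on gelatin in LIF and serum replacement and, per the study's methods, carrying a tdTomato transgene under the promoter of the MERVL retrotransposon. One group received a non-targeting siRNA (siNT) and the other an siRNA against Cnot1 (siCnot1), the scaffold of the CCR4-NOT deadenylase, both at 150 nM with collection at 48 h. Each group had 2 libraries, prepared from poly(A)+ RNA of biological replicates. The study tested more than 1 siRNA against Cnot1, and which of them gave these libraries is not stated in the sources used here. The question asked of the data was whether the fall of short, abundant mRNAs after Cnot1 knockdown extended to these transcripts, and by how much.

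A TOP mRNA starts with a C followed by an unbroken run of pyrimidines. LARP1 binds this start when mTOR is inactive, so that ribosomal proteins and elongation factors are made or held back together. In elongation, eEF1A brings aminoacyl-tRNA to the ribosome, the eEF1B complex recharges it with GTP, eEF2 moves the ribosome along the mRNA, and proteins at the tunnel exit meet the emerging chain. In ESCs, as in other growing cells, these are among the most abundant mRNAs.

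Stretches near the annotated start of 8 of the mRNAs are shown, because a pyrimidine run at the cap defines the class and the annotated starts hold it in few of them. The sequences are from 1 GENCODE M21 transcript per gene (GRCm38), 5′ to 3′, and capitals mark the longest run of C and T that begins with C within the first 100 bases, with 5 bases before it where the transcript has them. Each lies in exon 1.
Eef1a1 (chr9:78481647-78481676, minus strand): acgttCTTTTTCgcaacgggtttgccgtca
Eef1b2 (chr1:63176875-63176904, plus strand): tccggCTCCTCagagggcgtttcccttcgt
Eef1d (chr15:75909288-75909317, minus strand): gggcgCCCTCCCTCTCCTTTgcagtcctga
Eef1g (chr19:8967122-8967151, plus strand): cactgCTCTCTCCTTTCCTCCTCCCTTgtc
Tpt1 (chr14:75845183-75845212, plus strand): ggatgCCCTCCCggggccggccgggcgtag
Naca (chr10:128035600-128035629, plus strand): cccggCTTCCTTCTgcaacaggcgtgggtc
Btf3 (chr13:98316921-98316950, minus strand): gtgcgCCTTCTCTCagctggtctgcccgag
Rack1 (chr11:48800360-48800389, plus strand): CTTTTTCTCCacagggtcgtggtggcagcc

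The runs were 6 to 22 bases long, with the longest in Eef1g and the shortest in Eef1b2. Only in Rack1 did the run open the annotated transcript. In the other 8 it began further in, as far as base 96 (Tpt1), so the capitals there mark runs inside the annotated leader and not a measured TOP tract. The cap sites in these cells were not measured. A run of at least 7 bases began within the first 100 bases in 8 of the 9 members. It did so in 62 of 79 cytosolic ribosomal protein genes. Among the 21792 genes with such a transcript the share was 39.8%, so a run at this distance from the annotated start is common. At the exact RefSeq start (GRCm38.p6), a C followed by at least 4 further pyrimidines was found in 2.51% of 32851 promoters, in 14 of 58 ribosomal protein genes with a promoter and in 1 of 7 members with one, Rack1. Within 10 bases either side of that start, it was found in 30.7% of promoters and 3 of the 7 members, Eef1a1, Naca and Rack1.

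All 9 transcripts fell after Cnot1 knockdown. They were lower in both siCnot1 libraries than in both siNT libraries, by 13.0% (Eef1g) to 34.7% (Eef1a1) of the mean siNT level, and all 9 passed an adjusted p of 0.05 in edgeR's quasi-likelihood test. Over the whole table, 14.7% of the genes tested were called lower by that rule, 15% were called higher (1563 lower and 3999 higher genes with scaling by library totals), and 31.2% were lower in both siCnot1 libraries than in both siNT libraries. The members' median log2 fold change was -0.40, beside 0.0084 over the genes tested, whose 10th and 90th percentiles were -0.47 and 0.83. None of the 9 reached a log2 fold change of -1, which the study required of a changed gene together with a DESeq2 p of at most 0.05. With these limits on the edgeR values used here, 1.8% of the genes tested were lower. Together the 9 genes took 2.32% and 2.30% of all counts in the siNT libraries and 1.74% and 1.79% in the siCnot1 libraries. Levels here are relative to the rest of each poly(A)+ library, so amounts per cell were not measured. In these bulk samples, less of an mRNA per cell, fewer cells that carry it and more of other mRNAs cannot be told apart.

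Total counts per library were 32135824 to 32557440, and Cnot1 itself fell to 19.8% of its siNT level. All 8 pluripotency markers of ESCs were counted above the floor of 3 reads per library. Their summed level, in CPM (counts scaled to library size, here with edgeR's TMM factors and called normalized), went from 6827 and 6494 in siNT to 5412 and 5655 in siCnot1, with 6 called lower. Markers of 2-cell-like cells moved the other way, with 10 of 11 called higher and a summed level of 92.9 and 92.1 in siNT and 240 and 247 in siCnot1. Summed markers of trophectoderm went from 36.5 and 36.3 to 31.4 and 26.2, with 2 of 4 tested called lower, and those of primitive endoderm from 11.3 and 9.28 to 15.4 and 15.8, with 1 of 5 called higher. Those of fibroblasts went from 8.94 and 12.2 to 13.3 and 12.7, with 1 of 3 tested called higher and Col3a1 at 0. The part of these shifts in the members' change was not tested.

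**Figure D1:**
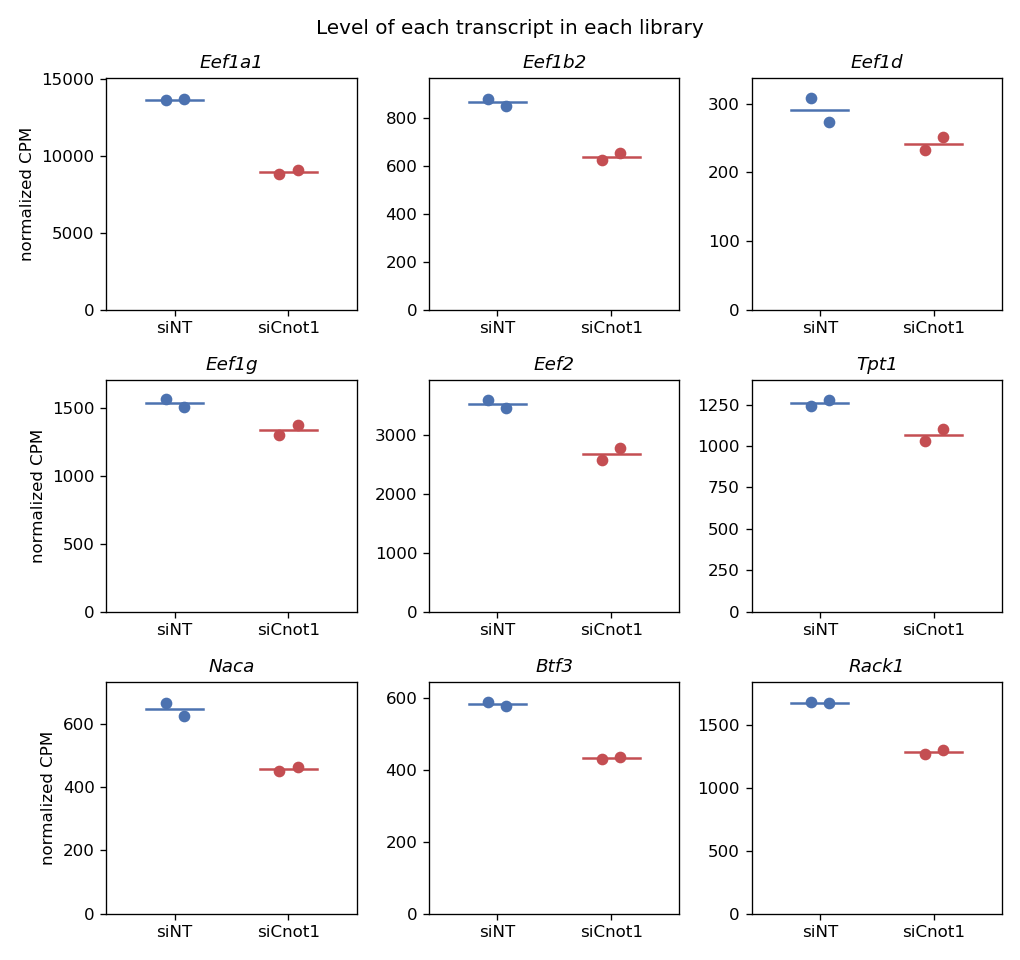
Level of each of the 9 transcripts in normalized CPM (counts scaled to library size by TMM) in the 2 siNT and 2 siCnot1 libraries, with a line at the group mean and each axis starting at 0. In all 9 panels both siCnot1 points lie below both siNT points, with the widest gap in Eef1a1 and the narrowest relative gaps in Eef1g, Tpt1 and Eef1d.

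Eef1a1 encodes eEF1A1, the GTPase that carries aminoacyl-tRNA to the ribosomal A site (chr9:78385735-78389006, minus strand, in GRCm39 as are the gene positions that follow). It stood at 13626 and 13661 normalized CPM in siNT and at 8775 and 9050 in siCnot1. The groups were far apart beside the spread within them, since the siNT libraries differed by little and the siCnot1 libraries by a few percent. It changed by -0.61 ± 0.0486 on the log2 scale (± standard error here and for the other members, adjusted p = 3.07e-09 in edgeR's quasi-likelihood test), and 6.51% of the genes tested had a lower log2 fold change. Per exon length, it was the highest of all genes in siNT, at 7622 ± 13.9 normalized FPKM (SD, n = 2). In siCnot1 it was at 4979 ± 109 normalized FPKM (SD, n = 2) and 1 gene lay above it, the mitochondrial COX1, which went from 2988 ± 320 to 6413 ± 960 normalized FPKM.

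The exchange factor that reloads eEF1A with GTP is a complex of the catalytic eEF1B2 and eEF1D and the structural eEF1G. Eef1b2 (chr1:63215990-63219645, plus strand) was at 880 and 849.8 normalized CPM in siNT and 623 and 654 in siCnot1. Its groups were well separated, and its log2 fold change was -0.44 ± 0.0536 (adjusted p = 1.47e-06, edgeR). Eef1d (chr15:75766645-75781430, minus strand) was at 308 and 273 normalized CPM in siNT and 232 and 251 in siCnot1. Its siNT libraries lay farther apart from each other than the lower of them lay from the higher siCnot1 library. Its log2 fold change was -0.27 ± 0.0630 (adjusted p = 0.00242, edgeR), and the call was lost when siNT replicate 1 was left out (adjusted p = 0.168, edgeR), when siCnot1 replicate 1 was left out (0.127), without a filter on low counts (0.0810) and with scaling by library totals (0.0510, at a log2 fold change of -0.16). Eef1g (chr19:8944405-8955544, plus strand) was at 1564 and 1509 normalized CPM in siNT and 1300.1 and 1374 in siCnot1. The groups did not overlap, and the log2 fold change was the smallest of the 9, at -0.20 ± 0.0527 (adjusted p = 0.00553, edgeR). The Eef1g call was lost with library totals (-0.09, adjusted p = 0.151, edgeR) and without siNT replicate 1 (0.122), siNT replicate 2 (0.0715) or siCnot1 replicate 1 (0.123).

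The estimated falls differed within the eEF1 machinery, most between Eef1a1 and Eef1g, the largest and the smallest fall of the 9. The ratio of Eef1a1 to Eef1g counts needs no scaling between libraries, and on the log2 scale it changed by -0.41, from 3.12 and 3.18 in the siNT libraries to 2.75 and 2.72 in the siCnot1 libraries. That of Eef1b2 to Eef1g was -0.83 in each siNT library and -1.06 and -1.07 in siCnot1, a change of -0.24 within the exchange complex. In both cases the groups were apart by several times the spread within them. With 2 libraries a group, an exact two-sided permutation test cannot go below p = 0.333 whatever the values, so none was run. Over all 36 pairs of members, the ratio did not overlap between the groups in 30. Over all pairs of the 2447 genes with a mean of at least 100 normalized CPM, it did not overlap in 77%. Ratios that separate the groups were thus common among abundant genes and not particular to the members. The 6 overlapping pairs of members were Eef1d with Eef1g, Eef1d with Tpt1, Eef1g with Tpt1, Eef2 with Rack1, Eef2 with Btf3 and Eef1b2 with Btf3.

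Eef2 encodes the translocase that moves the ribosome by 1 codon (chr10:81012465-81018343, plus strand). It was at 3585 and 3450 normalized CPM in siNT and 2574 and 2770 in siCnot1. Both siCnot1 libraries were clearly lower, with a log2 fold change of -0.40 ± 0.0528 (adjusted p = 4.52e-06, edgeR). Relative to Eef2, Eef1a1 fell further, by 0.22 on the log2 scale of the ratio.

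The nascent polypeptide-associated complex, a pair of NACA and BTF3, sits at the ribosomal tunnel exit. Naca (chr10:127869144-127884506, plus strand) was at 667 and 626 normalized CPM in siNT and 449.8 and 463 in siCnot1. This was the second largest fall of the 9, with a log2 fold change of -0.50 ± 0.0548 (adjusted p = 3.19e-07, edgeR). Btf3 (chr13:98446405-98453514, minus strand) was at 588 and 579 normalized CPM in siNT and 429 and 436 in siCnot1. Its log2 fold change was -0.43 ± 0.0531 (adjusted p = 1.58e-06, edgeR), and the log2 ratio of Naca to Btf3 changed by -0.07, from 0.18 and 0.11 to 0.07 and 0.09. The groups did not overlap in this ratio, but the gap between them was smaller than the difference between the siNT libraries.

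RACK1 is a scaffold protein on the head of the small ribosomal subunit, and TPT1, also called TCTP, is a small protein whose mRNA is a classic translationally controlled TOP message. Rack1 (chr11:48691187-48697068, plus strand) was at 1680 and 1669 normalized CPM in siNT and 1264 and 1301 in siCnot1. Its replicates were close together, and its log2 fold change was -0.38 ± 0.0512 (adjusted p = 4.59e-06, edgeR). Tpt1 (chr14:76082472-76085743, plus strand) was at 1245 and 1281 normalized CPM in siNT and 1029 and 1103 in siCnot1. The groups did not overlap, with a log2 fold change of -0.24 ± 0.0536 (adjusted p = 0.00122, edgeR). The Tpt1 call was lost without siNT replicate 1 (adjusted p = 0.0640, edgeR), siNT replicate 2 (0.0844) or siCnot1 replicate 1 (0.0693). Eef1d, Eef1g and Tpt1, the 3 smallest falls, were the members whose calls were lost when 1 library was left out.

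**Figure D2:**
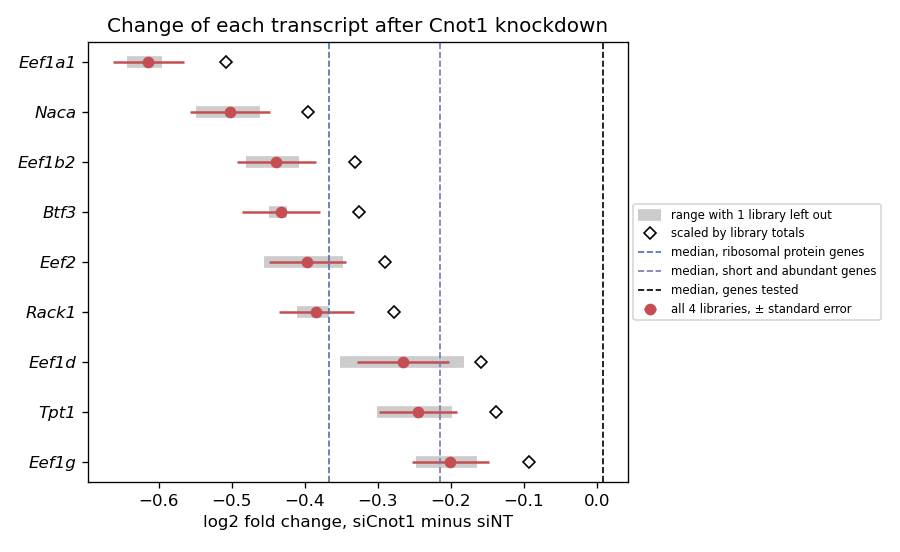
Log2 fold change of each transcript (siCnot1 minus siNT, points with standard errors), with the range over the 4 fits that leave out 1 library (grey bars) and the value under scaling by library totals (diamonds). Dashed lines mark the medians of ribosomal protein genes (-0.37), short and abundant genes (-0.21) and genes tested (0.0084), and every value of the 9 lies below 0.

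The order of levels was read per exon length, on the FPKM scale, since longer mRNAs give more reads. In siNT it ran from Eef1a1 through Rack1 (1335 ± 6.09), Eef2 (1135 ± 30.7), Tpt1 (1130 ± 22.8), Eef1g (982 ± 24.6), Btf3 (517 ± 5.73), Eef1b2 (447 ± 11.1) and Eef1d (94.7 ± 8.06) to Naca (76.2 ± 3.43 normalized FPKM, SD, n = 2 for each). Eef2 and Tpt1 did not differ beyond their spread. In siCnot1 Tpt1 (954 ± 46.7), Eef2 (862 ± 44.7) and Eef1g (854 ± 33.5 normalized FPKM) followed Rack1 (1023 ± 20.6). The low place of Naca came with an exon length of 8480 bases in the deposited table, which includes a long alternative exon. With the length of 1 reference transcript, Naca was at 730 ± 32.9 normalized FPKM in siNT and 516 ± 10.3 in siCnot1, and Eef1d became the lowest, at 126 ± 10.7 and 104.5 ± 5.82. With these lengths Rack1, Eef2 and Tpt1 were at 886 ± 17.9, 865 ± 44.8 and 912 ± 44.7 in siCnot1, and Eef1g lay below them at 717 ± 28.1, so the order of neighbouring genes depended on the length used.

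**Figure D3:**
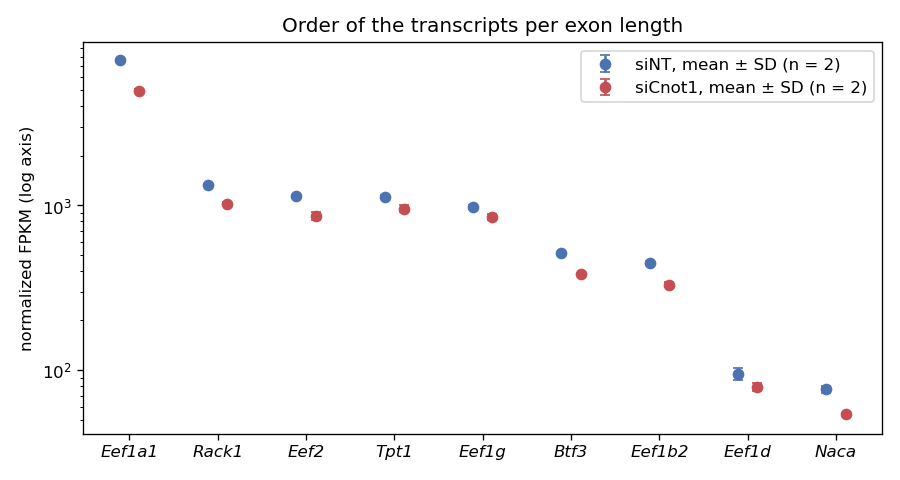
Mean normalized FPKM of the 9 transcripts in siNT and siCnot1 on a log axis, with the SD of 2 libraries, ordered by the siNT level. Eef1a1 stands apart at the top in both groups (7622 and 4979), and Naca is last with the deposited exon length of 8480 bases.

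Set beside the 79 cytosolic ribosomal protein genes, the largest group of TOP mRNAs, the members fell by a similar amount. Of the ribosomal protein genes, 76 of 79 were called lower and 0 higher, and their log2 fold changes lay between -0.59 and -0.22 around a median of -0.37. The members' range, -0.61 to -0.20, went slightly past that range at both ends. The log2 ratio of the 9 members' counts to the ribosomal protein genes' counts went from -1.29 and -1.21 in the siNT libraries to -1.37 and -1.38 in the siCnot1 libraries. Eef1a1 held 52.0% to 57.2% of the members' counts, and without it the log2 ratio was -2.49 and -2.43 in siNT and -2.44 in each siCnot1 library, within the range of the siNT libraries. Taken singly, Eef1a1 fell against the ribosomal protein sum by 0.24 on the log2 scale, while Eef1g was higher against it by 0.17 and Rack1 moved by -0.01.

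All 9 members were abundant, with a mean of at least 100 normalized CPM, and 6 of them had an exon length of at most 2000 bases. The median was -0.21 on the log2 scale over the 455 other genes that were short and abundant by these limits, with 284 called lower (62.4%, and 111 to 212 genes with 1 library left out) and 32 called higher. Without ribosomal protein genes, 387 short and abundant genes had a median of -0.18, and 55.8% were called lower. Among 1983 longer abundant genes, the median was -0.10 and 776 (39.1%) were called lower, or 346 to 485 with 1 library left out, and this median depended on the scaling, with 0.0049 under library totals. Among genes below 100 normalized CPM, 11.8% of 4596 short genes and 9.52% of 11101 long genes were called lower, but calls at this level also had fewer counts behind them. Of the members over 2000 bases in the deposited table, Eef1d and Eef2 changed by -0.27 and -0.40. Naca (-0.50) was over this limit only through its long alternative exon, since its reference transcript has 885 bases.

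**Figure D4:**
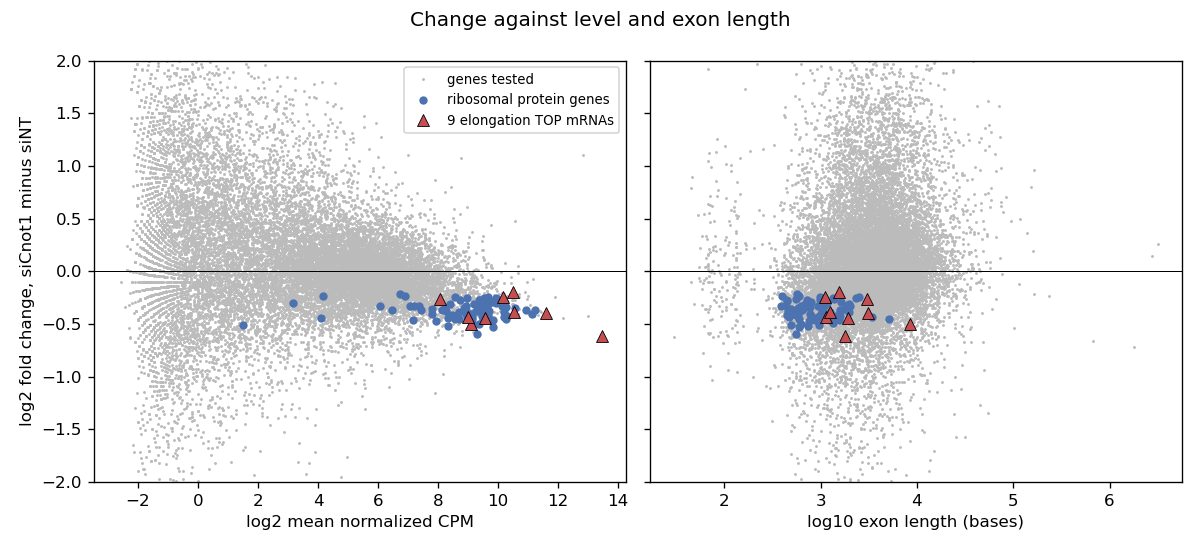
Log2 fold change (siCnot1 minus siNT) of the genes tested against the log2 of their mean normalized CPM (left) and the log10 of their exon length (right), with ribosomal protein genes and the 9 elongation TOP mRNAs marked; 329 genes lie beyond the plotted range of 2 in either direction. The 9 triangles lie below 0 at the abundant end of the left panel, among or beside the ribosomal protein genes. The rightmost triangle is Naca, whose 8480 bases include a long alternative exon.

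Genes with a pyrimidine run at the annotated start were set beside genes without one, as a description with no test. Leaving out members and ribosomal protein genes, 16.1% of 384 tested genes with a run at the exact RefSeq start were called lower, against 14.8% of 12372 genes without one, and the median log2 fold change was 0.02 in each. Among abundant genes the shares were 44.8% of 58 and 40.6% of 1832, with medians of -0.13 and -0.11. With the wider window, 41.2% of abundant genes with a run and 40.4% of those without were called lower. The exact start held such a run in only 1 of the 7 members with a promoter, so the comparison sorts genes by annotation and not by measured cap sites.

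Of 9 further mRNAs known as TOP mRNAs, 6 were called lower (4 to 6 with 1 library left out) and 1 higher, with a median log2 fold change of -0.27. The share called lower was 66.7%, beside 14.7% of all genes tested, 62.4% of short and abundant genes and 39.1% of longer abundant genes. Eif4b, a cofactor of the initiation helicase, changed by -0.49 (adjusted p = 2.72e-07, edgeR), and Npm1, a nucleolar chaperone, by -0.42 (adjusted p = 1.32e-06, edgeR). Hnrnpa1, a splicing regulator, changed by -0.32 (adjusted p = 6.73e-05, edgeR). Vim, the intermediate filament vimentin, was higher, at 235 and 230.2 normalized CPM in siNT and 260.3 and 263 in siCnot1 (log2 fold change 0.17, adjusted p = 0.0226, edgeR). This call was lost in all 4 fits with 1 library left out and without the filter on low counts. Pabpc1, the cytoplasmic poly(A)-binding protein, was named after its values were seen. It was at 2286 and 2476 normalized CPM in siNT and 2277 and 2237 in siCnot1, which did not pass the test (log2 fold change -0.08, adjusted p = 0.30, edgeR), and its sign turned with library totals (0.03).

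A list of 6 cytosolic genes outside the members held elongation factors together with the synthetase-linked Vars and Eef1e1. It gave 5 lower calls and 1 higher, beside 14.7% of all genes tested called lower. The median was -0.37, and fewer of the 6 were called lower with any 1 library left out. Vars, the valyl-tRNA synthetase that joins the eEF1 complex, changed by -0.45 (adjusted p = 1.12e-05, edgeR), and Eif5a, which relieves stalling at proline stretches, by -0.37 (adjusted p = 4.42e-05, edgeR). Eef1e1, a scaffold of the multisynthetase complex, changed by -0.36 (adjusted p = 0.000315, edgeR). Eef1a2, the eEF1A form of muscle and neurons, was barely present, at 0.321 and 0.255 normalized CPM in siNT and 0.836 and 0.897 in siCnot1. Its log2 fold change of 1.57 passed the test (adjusted p = 0.0443, edgeR) but was called in only 3 of 11 alternatives, and its level remained far below that of Eef1a1.

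Of 14 tested modifiers of elongation factors, which include the kinase of eEF2 and the diphthamide enzymes, 2 were called lower (14.3%, beside 14.7% of all genes) and 0 higher, with a median of -0.12. With any 1 library left out, or without the filter on low counts, 0 of them were called. The called genes were the eEF1A methyltransferase genes Eef1akmt1 (-0.36, adjusted p = 0.00994) and Eef1akmt4 (-0.76, adjusted p = 0.0155, both edgeR), while Eef2k, which inhibits eEF2 by phosphorylation, was at -0.30 (adjusted p = 0.0884, edgeR). Of 5 termination and rescue factors, 4 were called lower (1 or 2 with 1 library left out, and 1 with library totals), with a median of -0.21, among them the recycling factor Abce1 (-0.32, adjusted p = 0.000161, edgeR). The termination and rescue factors were thus called lower in 80%, beside 14.7% of all genes tested. Of 5 mitochondrial elongation factors, 0 were called lower and 1 higher, Guf1 (0.28, adjusted p = 0.0200, edgeR), and the median was -0.03. The Guf1 call was lost in all 4 fits with 1 library left out and without the filter on low counts.

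Among 8 genes whose proteins act on the nascent chain, 5 were called lower (1 or 2 with 1 library left out, 2 with library totals and 3 without the filter) and 0 higher, with a median of -0.20. Of these 8 genes 62.5% were thus called lower, beside 14.7% of all genes tested and 62.4% of short and abundant genes. The called genes with the smallest p were the ribosome-associated chaperone Dnajc2 (-0.31, adjusted p = 0.000208), the methionine aminopeptidase Metap2 (-0.26, adjusted p = 0.00113) and the acetyltransferase Naa10 (-0.31, adjusted p = 0.00407, all edgeR). The paralogs of the NAC genes did not pass, with Btf3l4 at -0.19 (adjusted p = 0.0724, edgeR) and the sparsely counted Nacad at 1.09 (adjusted p = 0.165, edgeR). Of 17 regulators of TOP mRNA translation, 4 were called lower and 1 higher, with a median of 0.03. With 1 library left out 1 or 2 were called lower, and with library totals 2 were lower and 5 higher. In the main fit 23.5% of these regulators were called lower, beside 14.7% of all genes tested. Cnbp, which binds TOP mRNAs, changed by -0.42 (adjusted p = 2.06e-06, edgeR), Mtor, the kinase, by -0.28 (adjusted p = 0.00227, edgeR), and Larp1, the TOP-binding repressor, by -0.19 (adjusted p = 0.0102, edgeR). Tsc1, an inhibitor of mTORC1, was higher, by 0.39 (adjusted p = 0.000921, edgeR). Over the alternatives, Mtor ranged from -0.37 to -0.18, Larp1 from -0.22 to -0.08 and Tsc1 from 0.33 to 0.50. The calls of Mtor, Larp1 and Tsc1 were each lost in some alternatives.

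Pseudogenes listed as a member's name followed by -ps and genes within introns were checked, since these abundant mRNAs have near-identical copies. Copies listed under other names were not searched for. No row was so named for Eef1b2, Eef1d, Eef1g, Naca or Rack1. Tpt1-ps3 held 2635 and 2720 counts in siNT and 2362 and 2538 in siCnot1, 6.79% of the siNT counts of Tpt1, and its log2 fold change of -0.23 (adjusted p = 0.0147, edgeR) was close to that of Tpt1. Btf3-ps1 held 3.24% of the counts of Btf3 and changed by -0.54 (adjusted p = 0.0016, edgeR). Eef2-ps2 held 0.667% of those of Eef2 and changed by -0.42 (adjusted p = 0.00851, edgeR). The calls of Tpt1-ps3, Btf3-ps1 and Eef2-ps2 were lost in some of the alternatives. Btf3-ps11 went the other way without passing, at 6 and 9 counts in siNT and 13 and 24 in siCnot1 (log2 fold change 1.19, adjusted p = 0.213, edgeR). Eef1a1-ps1 held 0.0583% of the counts of Eef1a1 and did not pass the test (-0.41, adjusted p = 0.0787, edgeR). How reads that match several loci were counted is not stated in the sources used here, so these rows and their parents are uncertain to that extent. No exon of a member overlapped another listed gene. The small RNA genes in the members' introns were sparsely counted and none was called, with Snord96a in Rack1 the highest, at 464 and 370 counts in siNT and 499 and 460 in siCnot1 (log2 fold change 0.10, adjusted p = 0.626, edgeR).

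The genes whose profile over the 4 libraries was most like that of the members' mean, by Euclidean distance of centred log2 normalized CPM, were Serp1 (distance 0.0128), Praf2 (0.0143) and H2az1 (0.0144). Their log2 fold changes were -0.38, -0.39 and -0.38. Serp1 encodes a stabiliser of membrane proteins in the endoplasmic reticulum and H2az1 a histone H2A variant.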

How the data were processed

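The authors deposited counts per gene for 4 libraries (2 siNT, 2 siCnot1), neither normalized nor pooled, and the exon length of each gene. Libraries were poly(A)+ and strand-marking, read as 150-base pairs. The submitters' processing notes name fastp 0.19.4, HISAT2 2.2.1, DESeq2 1.40.2 and mm10, whereas positions in the deposited table match GRCm39. The counting program, its strand setting and its treatment of multiply mapped reads are not given in the sources used here.

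Counts were tested with edgeR 4.0.16 in R 4.3.3 (filterByExpr with minimum count 10, TMM, quasi-likelihood test, condition alone, Benjamini-Hochberg over 18144 genes, call at an adjusted p of 0.05). Standard errors are the log2 fold change over the square root of F. Normalized CPM use TMM-scaled library sizes, and FPKM divide these by exon length in kilobases. The floor of 3 counts was 0.0921 to 0.0934 CPM and covers counting error only. The fits were tested on simulated data. Alternatives were 3 other scalings, 2 other filters, DESeq2 1.42.0, limma-voom 3.58.1, the replicate block and leaving out each library. GENCODE M21 transcripts (GRCm38, 1 per gene by principal isoform and support) and RefSeq promoters were joined by name only. No genome of the files' build was used. The search for the longest run beginning in the first 100 bases was added after the members' RefSeq starts were seen. The start sequence of 1 member is not reported here. Figures were drawn with matplotlib 3.10.9.

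The members and lists were chosen with earlier results of these data known. Named were the members and Cnot1, up to 3 genes per list and direction with the smallest p among those called, Eef1a2, Eif5a, Btf3l4, Nacad, Larp1 and Eef2k, pseudogene rows, and the 3 closest profiles. COX1, Pabpc1 and the intronic small RNA genes were named after their values were seen.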

Additional observations from a re-analysis of the deposited data

How the results depend on the processing

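Over 12 alternatives, all 9 members stayed below 0 in each, and 6 to 9 were called lower. Eef1a1, Eef1b2, Eef2, Naca, Btf3 and Rack1 were called in all 12, Tpt1 in 9 and Eef1d and Eef1g in 8. Scaling by library totals moved the median log2 fold change of the genes tested to 0.12 and left 7 members called, a members' median of -0.29, a ribosomal protein median of -0.26, 1563 genes called lower and 3999 higher, 0.0049 for the median of longer abundant genes and 0.0301 for the log2 fold change of Pabpc1. Without a filter on low counts, 8 members, 1450 lower and 1303 higher genes were called. Leaving out 1 library, where the lone library is assumed to vary like the other group, gave 6 to 9 members, 871 to 1463 lower genes, 743 to 1439 higher genes, 40 to 75 lower ribosomal protein genes (40 without siNT replicate 1), and a regulators' median from -0.0352 to 0.0347. The DESeq2 and limma-voom tests called all 9 members. With the replicate block, 9 members were called with a median of -0.40, beside 2431 lower and 2524 higher genes, so the block changed no member's call. The labels state no pairing behind the replicate numbers, and libraries with the same number did not deviate together (correlation 0.0105 over 18000 genes). Library totals leave out the TMM factors, which were 0.964 and 0.963 in the siNT libraries and 1.04 and 1.03 in the siCnot1 libraries. Why the results moved between alternatives was not tested. With 2 libraries a group, the edgeR p-values rest on these few libraries and on a spread estimated partly across all genes tested.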
